A study of Mus musculus with 2 samples.

Results

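The proteasome genes described here are the mouse genes whose symbols begin with Psm, a letter from a to g and a number. They were found by that name pattern alone, among probe sets that the platform annotation assigns to a single gene. The pattern found 49 genes of the 18193 genes with such a probe set, carried by 103 probe sets. Of these, 47 encode subunits, regulators or assembly factors of the proteasome. The other two match in name only: Psmc3ip, whose product acts in meiotic recombination, and Psme3ip1, whose product binds the activator encoded by Psme3.

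The RNA came from G1E cells, an erythroid progenitor line made from mouse embryonic stem cells without functional GATA-1. All cells carried ER-GATA-1(V205G), an estradiol-dependent GATA-1 fusion whose substitution weakens binding to the cofactor FOG-1, so both groups share the loss of Gata1 and the transgene. One group is the cells before treatment, with 0 µM estradiol at 0 h, and the other is the cells after 24 h in 1 µM estradiol, with 1 array for each. The sources used here name neither the promoter that drives the fusion nor the number of clones. The mutant, the hormone and the 24 h of culture cannot be told apart as sources of a difference, and with 1 array a group no p-value or error between cultures exists.

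The proteasome is the protease that degrades ubiquitin-tagged proteins in the cytosol and nucleus. Its core particle is a barrel of stacked rings: outer rings of alpha subunits gate the channel, and inner rings of beta subunits hold the active sites. A regulatory cap, made of an ATPase base and a lid, recognises the ubiquitin chain, removes it and threads the substrate into the core. Dedicated chaperones build core and cap and leave the finished particle. Immune cells and cells exposed to interferon swap the catalytic beta subunits for inducible ones, giving the immunoproteasome. In red cell development, ubiquitin-dependent proteolysis was first worked out in extracts of reticulocytes, which clear much of their protein content as they mature.

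The unit of each value is a linear array signal, and each gene is represented by its brightest probe set over both arrays. A floor was set at a signal of 95.2, the 50th percentile of both arrays, and a gene at or above it on both arrays counts as measured. Ratios are log2 of estradiol over untreated, so a positive value is higher after estradiol. Signals of different probe sets depend on their probes and do not rank transcript levels between genes. The yardstick for a ratio is how far probe sets for a shared gene scatter, as a pooled SD of their log2 ratios. It was 0.25 over 12514 probe sets of 4586 genes, and 0.20, 0.25 and 0.30 in the highest, middle and lowest tertile of signal. It holds probe noise and transcript forms, not differences between cultures.

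Of the 49 genes, 46 were measured and 3 were below the floor on both arrays. The 46 lay close to 0, with a median log2 ratio of -0.02, against 0.00 for all 10240 measured genes. They split into 21 above 0 and 25 below. At 1.5-fold, 1 of 46 was higher (2.17%), against 7.11% of all measured genes, and 1 of 46 was lower (2.17%), against 4.85%. None reached 2-fold in either direction, against 2.04% of all genes higher and 1.10% lower. Within 1.2-fold, a band added after the values were seen, lay 38 of 46 (82.6%), against 59.4% of all measured genes. Past it were 3 of 46 higher and 5 of 46 lower, or 8 of 46 in either direction (17.4%), against 21.8%, 18.9% and 40.6% of all genes. Bright genes vary less on these arrays: 67.4% of the 3642 genes in the highest tertile of signal lay within 1.2-fold and 32.6% past it, against 34 of the 40 proteasome genes in that tertile within it (85.0%). At 1.5-fold, 196 of those 3642 genes were higher and 127 lower, against 1 and 1 of the 40 proteasome genes. The share of proteasome genes past each fold was thus below that of all genes, a description of 2 arrays without a test. At 1.5-fold and 2-fold, counts of 0 or 1 are too small to tell the shares apart.

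**Figure D1:**
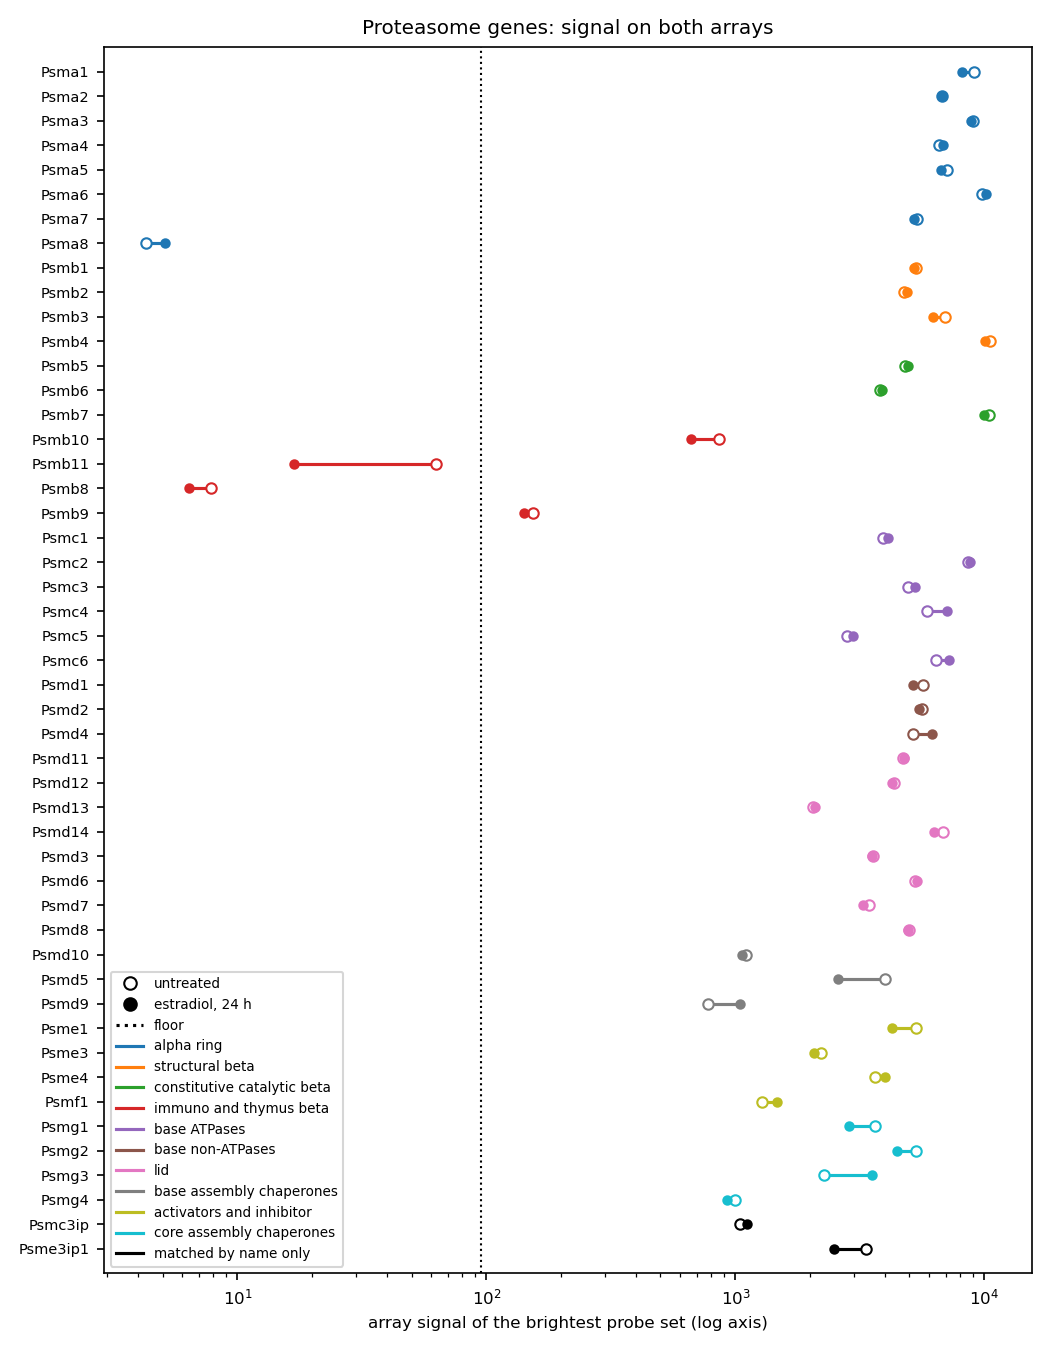
Array signal (log axis) of the brightest probe set of each of the 49 genes, untreated (open circles) and after 24 h estradiol (filled circles), coloured by role, with the floor of 95.2 as a dotted line. Most pairs of circles nearly coincide, while Psma8, Psmb8 and Psmb11 lie below the floor on both arrays.

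The subunits of the constitutive particle stayed nearly level. Those 31 measured genes, from the alpha ring, the beta ring, the base and the lid, had log2 ratios from -0.17 (Psmb3) to 0.27 (Psmc4), a median of 0.00 and an interquartile range of 0.10. All 31 lay within 1.5-fold, against 88.0% of all measured genes and 91.1% of those in the highest tertile of signal. Within 1.2-fold lay 30 of 31, against 59.4% and 67.4%. The interquartile range was 0.42 for all measured genes and 0.33 for those in the highest tertile of signal. With 16 genes above 0 and 15 below, the particle had no common direction. In a bulk sample, fewer cells with a transcript and less of it per cell cannot be told apart.

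Among the alpha subunits, which form the gated outer rings, all 7 measured genes lay between -0.15 and 0.06. Psma1 was the lowest, with signals of 9044 untreated and 8151 with estradiol. Psma4 was the highest, reading 6557 and 6819. Psma2 gave almost identical signals of 6755.9 and 6756.2. The remaining alpha gene, Psma8, encodes a subunit made mainly in the testis, and its only probe set read 4.30 and 5.10, far under the floor. The array thus showed the somatic alpha set and no signal above the floor from the germ-line form.

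The structural beta genes, Psmb1 to Psmb4, whose products hold no active site, had log2 ratios from -0.17 to 0.04. Psmb3 was lowest at 6967 and 6204, and its second probe set had -0.22. Psmb2 was highest at 4751 and 4893. The 3 constitutive catalytic genes had the narrowest range of all role groups, between -0.07 and 0.04. By interquartile range the 8 lid genes were tighter, at 0.05 against 0.06. Psmb5, whose product cleaves after hydrophobic residues, read 4795 and 4945, a log2 ratio of 0.04. Psmb6, the caspase-like subunit gene, read 3819 and 3866 (0.02). Psmb7, the trypsin-like subunit gene, read 10414 and 9919 (-0.07). All of these sit inside the 2 SD limit of 0.40 for bright genes, so none of the catalytic genes differed beyond probe noise.

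The inducible counterparts gave another picture. Psmb8, which replaces Psmb5 in the immunoproteasome, read 7.80 untreated and 6.40 with estradiol, and about 1 or less on its second probe set. Both of its probe sets were below the floor on both arrays. Psmb9, which replaces Psmb6, read 154 and 142, a log2 ratio of -0.12 close above the floor. Psmb10, which replaces Psmb7, read 858 and 663, a log2 ratio of -0.37 that is short of the 2 SD limit of 0.50 for its signal. Psmb11, the thymus-specific catalytic gene, read 62.8 and 16.8, below the floor on both arrays. So the measured immunoproteasome genes, Psmb9 and Psmb10, were both lower after estradiol by less than probe noise allows to be called, and no ratio exists for Psmb8 or Psmb11.

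The ATPases of the base, which unfold substrates and push them into the core, lay on one side. All 6 genes had ratios above 0, where 50.1% of all measured genes lay above 0, with a median of 0.09. They ran from 0.03 for Psmc2 to 0.27 for Psmc4, and each was within the 2 SD limit of 0.40. Psmc4 read 5887 and 7077, but a second probe set gave only 0.02. For Psmc6 the probe sets spread widely: the brightest read 6411 and 7238 (0.18), the second 3675 and 4985 (0.44), and the dimmest 747 and 1245 (0.74). Psmc1, Psmc3 and Psmc5 lay between 0.08 and 0.09. The side of 0 depends on the scaling: with a common median in place of a common trimmed mean, 2 of 6 ATPase genes lay above 0. The median of all measured genes then shifted to -0.11, and the lowest ATPase gene, Psmc2 at -0.08, was still above that median.

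The other base genes encode large scaffold proteins and a ubiquitin receptor. The scaffold genes Psmd1, whose product holds a ubiquitin receptor, and Psmd2, whose product docks ubiquitin-like shuttles, read 5645 and 5156 (-0.13) and 5601 and 5473 (-0.03). Psmd4, the gene of a ubiquitin receptor, read 5176 and 6158 (0.25) on its brightest probe set and 4576 and 5164 (0.17) on the second. A further, dim one read 185 and 340, and its log2 ratio of 0.88 was the highest of all probe sets of the 49 genes. The bright probe sets of Psmd4 therefore stayed within probe noise while the dim one did not.

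All 8 lid genes were measured, and they were tightly grouped from -0.11 to 0.04, with a median of -0.01. Psmd14, whose product is the metalloprotease that cuts off the ubiquitin chain, was lowest at 6791 and 6283. Psmd6 was highest at 5250 and 5380. Psmd11 carries 8 probe sets, of which 5 were measured. Its brightest read 4718 and 4731 (0.00), while the others ran from -0.29 to 0.37, so a claim about this gene depends on the probe set taken.

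**Figure D2:**
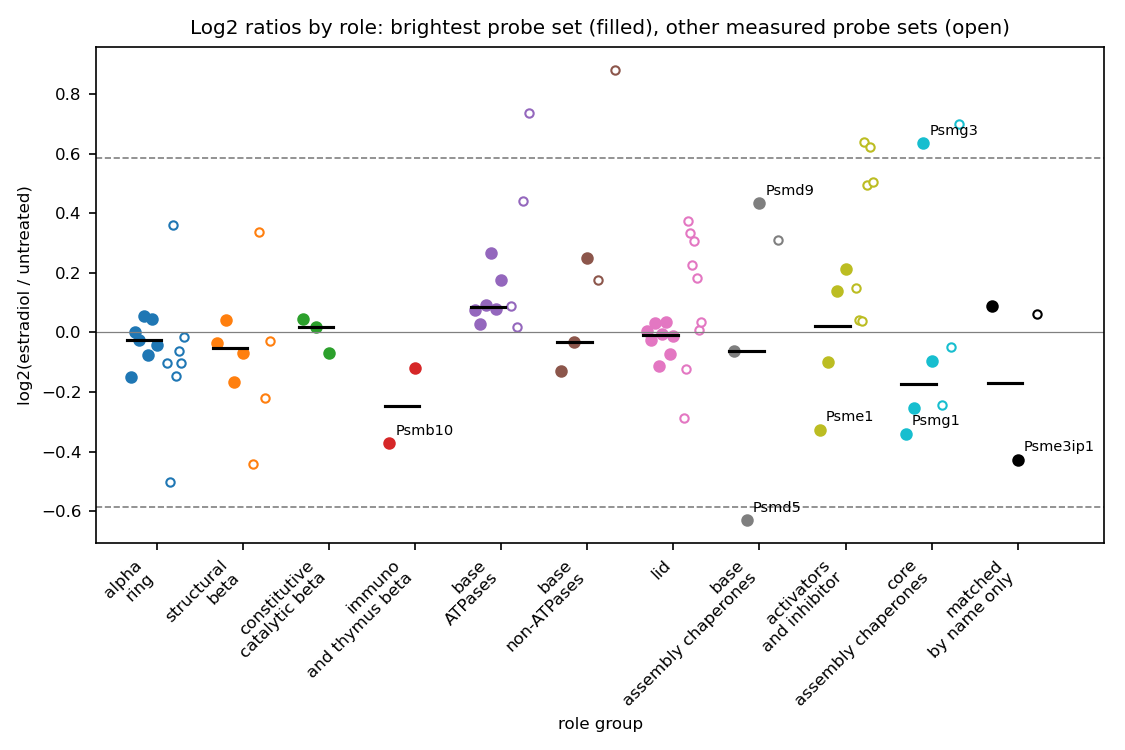
Log2 ratio of estradiol over untreated by role group, with the brightest probe set of each measured gene filled, other measured probe sets open, the median of the filled points as a bar, and 1.5-fold as dashed lines. Filled points of the constitutive core, base and lid genes lie between -0.17 and 0.27, and their open points between -0.50 (Psma1) and 0.88 (Psmd4). Psmg3 and Psmd5 are the only filled points past 1.5-fold.

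Genes for factors that build or regulate the particle were more spread than its subunits. Their 11 measured members ran from -0.63 to 0.64. Their interquartile range of 0.47 was near the 0.42 of all measured genes, against 0.10 for the 31 constitutive subunits. Both genes past 1.5-fold were assembly chaperone genes. Of those 7 genes 1 was higher, against 7.11% of all measured genes, and 1 lower, against 4.85%. Below 0 lay 5 of the 7 assembly chaperone genes, against 5111 of all 10240 measured genes, and the median of the 7 was -0.10. The part of signal level in the wider spread was not tested.

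Psmd5 encodes a chaperone that binds a base ATPase before the base is complete. It read 3991 untreated and 2577 with estradiol, 1.55-fold lower (log2 ratio -0.63). That is beyond the 2 SD limit of 0.40, and the gene has only this probe set. After loess correction of the signal trend its log2 ratio was -0.58, just short of 1.5-fold. The other base chaperone genes went elsewhere: Psmd9 read 773 and 1045 (0.43, with 0.31 on a second probe set), and Psmd10, the gankyrin gene, read 1107 and 1060 (-0.06). The base chaperone genes thus lay on both sides of 0.

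Psmg3 encodes a chaperone of alpha ring assembly and was the highest of all 46 genes. Its signal went from 2270 to 3527, which is 1.55-fold higher (0.64 on the log2 scale) and beyond the limit of 0.40. The dim second probe set, at 117 and 191, gave 0.70, so both probe sets were past 1.5-fold. With a common median the brightest probe set had 0.52, short of that threshold. Psmg4, whose product pairs with that of Psmg3, read 993 and 929 (-0.10). The genes of the other chaperone pair were both lower: Psmg1 read 3619 and 2860 (-0.34), and Psmg2 read 5326 and 4465 (-0.25) with -0.24 on its next probe set. Partners within a chaperone pair therefore lay apart for Psmg3 and Psmg4 and together for Psmg1 and Psmg2, the latter within the 2 SD limit.

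Activators that cap the core in place of the ATPase base differed little. Psme1, a subunit gene of the interferon-responsive activator PA28, read 5335 and 4253, a log2 ratio of -0.33. Its partner Psme2 shares its probe set with the copy Psme2b and so is outside the name rule. That shared probe set read 2647 and 2538 (-0.06), and probes for the pair cannot be told apart. Psme3, a nuclear relative, read 2211 and 2063 (-0.10). Psme4, the gene of a large single-chain activator, read 3631 and 4000 (0.14), with 0.04 on both other bright probe sets and 0.64 on a dim one that read 120 and 188. Psmf1 encodes an inhibitor of the core in the test tube, and its 4 probe sets were all above 0: the brightest read 1273 and 1474 (0.21) and the others had 0.49 to 0.62. Among the activators and the inhibitor none was past 1.5-fold on the brightest probe set, and 88.0% of all measured genes lay within it. The genes matched by name alone had log2 ratios of 0.09 (Psmc3ip, 1043 and 1108) and -0.43 (Psme3ip1, 3359 and 2497). Past the 2 SD limit of their signal lay 3 of 46 genes in all (6.52%), against 15.8% of all measured genes. Psmg3 was the 1 gene higher, against 8.62%, and Psmd5 and Psme3ip1 were the 2 lower, against 7.23%.

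**Figure D3:**
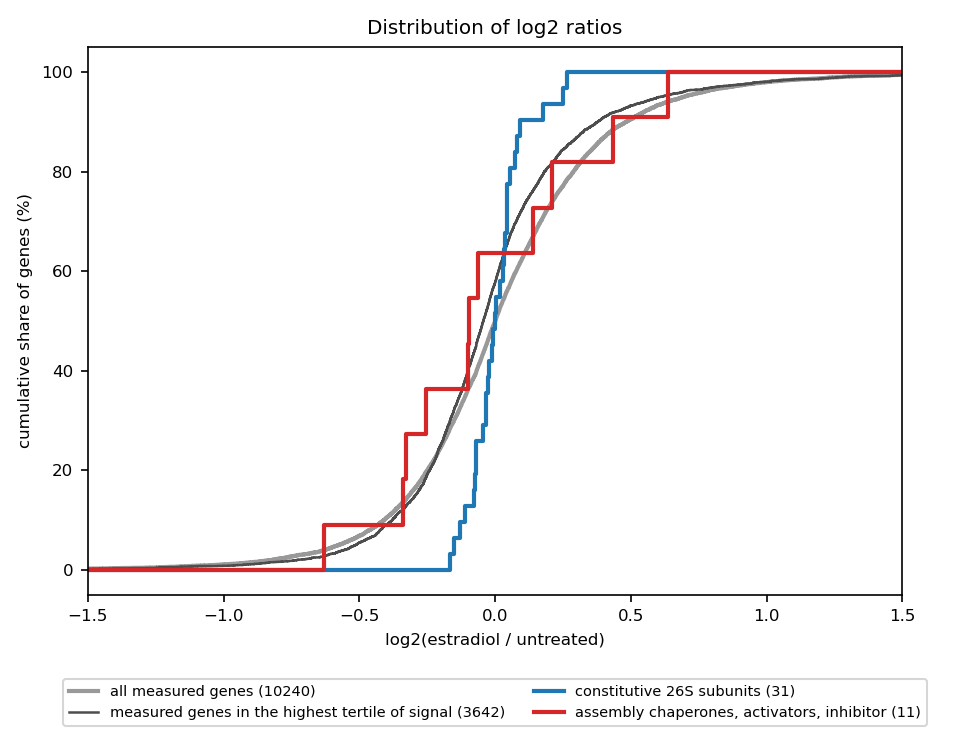
Cumulative share of genes (percent) against the log2 ratio, for all 10240 measured genes, the 3642 in the highest tertile of signal, the 31 constitutive subunits, and the 11 genes of assembly chaperones, activators and inhibitor. The constitutive subunits climb steeply between -0.17 and 0.27, while the 11 others spread from -0.63 to 0.64.

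Several probe sets of one gene offer the only repeat measurement here. Of 103 probe sets 84 were measured, 4 reached the floor on 1 array and 15 were below it on both. More than 1 probe set was measured for 23 genes: in 17 they all lay on one side of 0, and in 6 on both. In 14 of the 23 the probe sets lay within 0.25 of each other. Past 1.5-fold were 6 of 84 probe sets higher (7.14%, against 7.52% of all measured probe sets) and 1 of 84 lower (1.19%, against 4.88%). The 6 higher ones were both of Psmg3 and 1 each of Psmc6, Psmd4, Psme4 and Psmf1. Of the 57 probe sets in the highest tertile of signal, 1 was higher and 1 lower at 1.5-fold, with a median of -0.01. The 10 in the middle tertile had a median of 0.23 and the 17 in the lowest tertile 0.31. The medians of dimmer probe sets thus lay above that of the bright ones, but no median by tertile over all probe sets stands beside them. By gene, all those measured in the highest tertile of signal had a median of -0.04, against 0.00 for all measured genes. The part of signal level in the probe set medians was not tested.

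**Figure D4:**
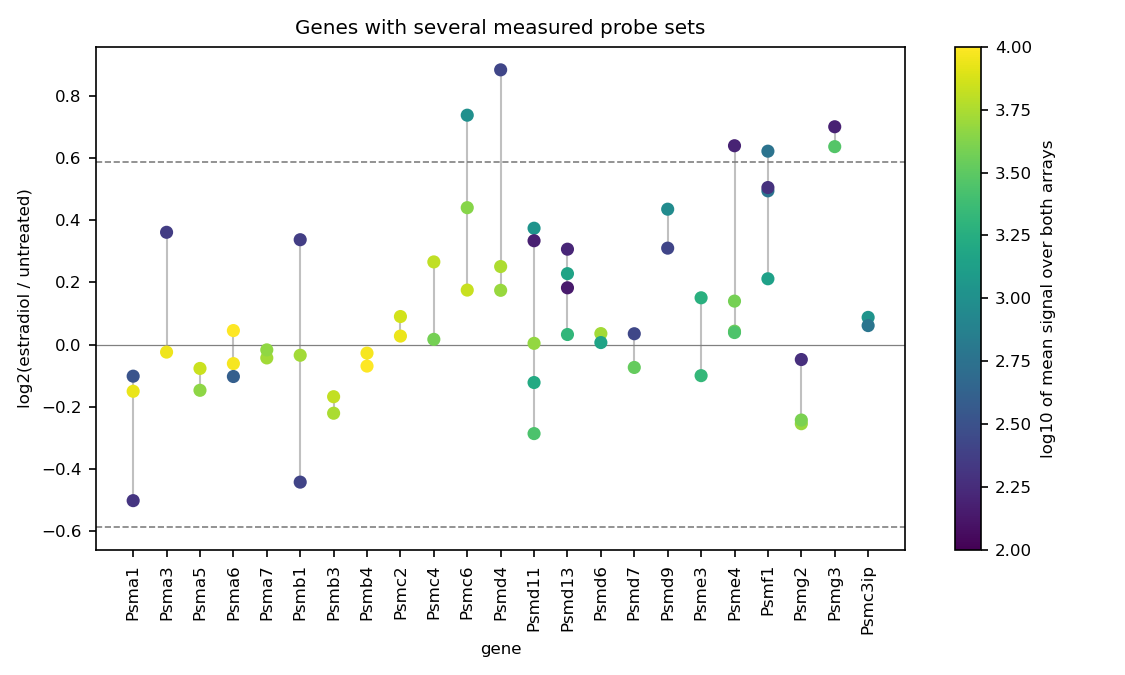
Log2 ratio of every measured probe set of the 23 genes with more than 1, coloured by log10 of the mean signal, with 1.5-fold as dashed lines. Psmb1 spans -0.44 to 0.34 and Psmd4 0.17 to 0.88, in both genes through probe sets far dimmer than the brightest one.

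Promoter windows show the sequence next to the genes that set the picture: a catalytic pair above and below the floor (Psmb5 and its inducible counterpart Psmb8), the only genes past 1.5-fold (Psmd5 and Psmg3), and Psmd9, whose window holds both TGACNNNGC and a GATA motif. The RefSeq promoter table for GRCm38.p6 matched 41 of the 49 genes by symbol. Each sequence covers the 250 bases before the annotated start, 5′ to 3′ on the gene's strand. Capitals mark TGACNNNGC (the core of the antioxidant response element, bound by NRF factors with small MAF partners), CCAAT, or the GATA motifs AGATAA and TGATAA, each on either strand. The windows are chr14:54617996-54618245 on the minus strand (Psmb5), chr17:34197945-34198194 on the plus strand (Psmb8), chr2:34870963-34871212 on the minus strand (Psmd5), chr5:139826895-139827144 on the minus strand (Psmg3) and chr5:123227940-123228189 on the plus strand (Psmd9).
Psmb5: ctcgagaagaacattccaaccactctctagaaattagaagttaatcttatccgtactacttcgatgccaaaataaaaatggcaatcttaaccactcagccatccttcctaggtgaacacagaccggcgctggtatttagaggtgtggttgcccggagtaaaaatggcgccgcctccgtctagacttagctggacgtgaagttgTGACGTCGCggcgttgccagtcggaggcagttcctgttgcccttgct
Psmb8: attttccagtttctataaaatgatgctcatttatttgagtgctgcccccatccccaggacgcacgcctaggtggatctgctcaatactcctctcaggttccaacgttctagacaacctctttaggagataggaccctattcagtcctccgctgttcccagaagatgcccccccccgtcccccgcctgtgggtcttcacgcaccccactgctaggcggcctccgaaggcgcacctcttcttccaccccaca
Psmd5: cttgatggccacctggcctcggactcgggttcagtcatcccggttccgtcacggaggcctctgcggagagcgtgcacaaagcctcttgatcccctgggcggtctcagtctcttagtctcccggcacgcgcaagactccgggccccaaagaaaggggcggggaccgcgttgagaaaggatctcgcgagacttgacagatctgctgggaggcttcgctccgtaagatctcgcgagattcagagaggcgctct
Psmg3: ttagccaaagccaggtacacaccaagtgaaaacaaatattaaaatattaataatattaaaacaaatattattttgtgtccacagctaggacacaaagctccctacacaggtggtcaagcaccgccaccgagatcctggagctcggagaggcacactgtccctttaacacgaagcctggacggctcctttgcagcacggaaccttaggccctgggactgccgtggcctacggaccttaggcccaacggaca
Psmd9: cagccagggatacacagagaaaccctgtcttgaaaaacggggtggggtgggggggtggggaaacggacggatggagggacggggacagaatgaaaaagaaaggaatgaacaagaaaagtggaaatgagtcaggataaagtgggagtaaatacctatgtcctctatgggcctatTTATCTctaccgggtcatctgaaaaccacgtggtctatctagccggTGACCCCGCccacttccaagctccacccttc

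The Psmb5 window holds a TGACNNNGC match starting 47 bases before the start, and the Psmb8 window holds none of the motifs. Neither do the windows of Psmd5 and Psmg3. The Psmd9 window holds a TGACNNNGC match 31 bases before the start and AGATAA on the other strand at 77 bases. Over the 41 genes, TGACNNNGC was found in 5 (12.2%), against 11.5% of 27025 genes in the table. Those 5 were Psmb5, Psmb6, Psmc6, Psmd12 and Psmd9, with log2 ratios from -0.03 to 0.43. CCAAT was found in 16 of 41 (39.0%), against 37.5%. A GATA motif was found in 4 of 41 (9.76%), against 18.8%: Psmd8 (-0.01), Psmd14 (-0.11), Psmf1 (0.21) and Psmd9 (0.43). A match describes letters in a window and is no evidence of binding.

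Partners that finish or serve the particle stayed within 1.5-fold, as did 88.0% of all measured genes. Of 19 listed genes 16 were measured, with a median log2 ratio of 0.00 and a range from -0.30 (Ubqln4, a shuttle of ubiquitinated proteins) to 0.37 (Ecpas, a proteasome adaptor). Pomp, which encodes the factor that completes the core, read 6107 and 6272 (0.04). Sem1, a small lid subunit outside the name rule, read 6032 and 5667 (-0.09). Usp14 and Uchl5, genes of the deubiquitinases that ride on the cap, had 0.00 each on their brightest probe sets. The 4 probe sets of Ecpas ranged from -0.14 to 0.82. Adrm1 and Paaf1 lack a probe set of their own in the annotation and were not analysed here. Uba6, a gene of a ubiquitin-activating enzyme, read 1636 and 1196 (-0.45), with -0.49 to -0.18 over 4 probe sets.

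In the pathway that controls proteasome genes, Ngly1 and Mafk differed more than any proteasome gene, while the other measured genes of the list stayed within 1.5-fold. NRF1, encoded by Nfe2l1, is made in the endoplasmic reticulum membrane, is stripped of its sugars by the enzyme encoded by Ngly1, and then activates proteasome genes with a small MAF partner. Nfe2l1 itself read 979 and 927 (-0.08), and its relative Nfe2l2 read 3136 and 3707 (0.24). Ngly1 read 3978 untreated and 1632 with estradiol, 2.44-fold lower (log2 ratio -1.29) on its only measured probe set. The small MAF gene Mafk was 2.25-fold higher, from 515 to 1162, also on its only measured probe set. Mafg read 875 and 1092 (0.32), Keap1 1369 and 1517 (0.15), and Maff was below the floor on both arrays. Of the 6 measured genes of this list, 1 was at least 1.5-fold higher, against 7.11% of all measured genes, and 1 was lower, against 4.85%. The list median was 0.20. The proteasome genes themselves lay around 0, and a link between them and this list was not tested.

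Among genes that work with the immunoproteasome in peptide presentation, Tapbp and Erap1 were lower past 1.5-fold. Of 5 measured genes 2 were at least 1.5-fold lower, against 4.85% of all measured genes, and 1 lay above 0, against 50.1%. Their median log2 ratio was -0.46. Tapbp, the tapasin gene, read 1111 and 664, 1.67-fold lower, with a log2 ratio of -0.74 and -0.41 on its other probe set. Erap1, a peptide-trimming enzyme gene, read 307 and 196 (-0.65), but -0.10 on another. Tap2, a subunit gene of the peptide transporter, read 624 and 455 (-0.46), short of the 2 SD limit of 0.60, and Tap1, its partner, read 109 and then 60.9, below the floor. B2m, the class I light chain gene, read 8625 and 7498 (-0.20), within its limit of 0.40. Irf1, a factor that induces immunoproteasome genes, was the one above 0, at 269 and 347 (0.36). In the RefSeq gene order Psmb9, Tap1, Psmb8 and Tap2 are neighbours, and none of their measured members (Psmb9 at -0.12 and Tap2 at -0.46) was higher after estradiol.

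**Figure D5:**
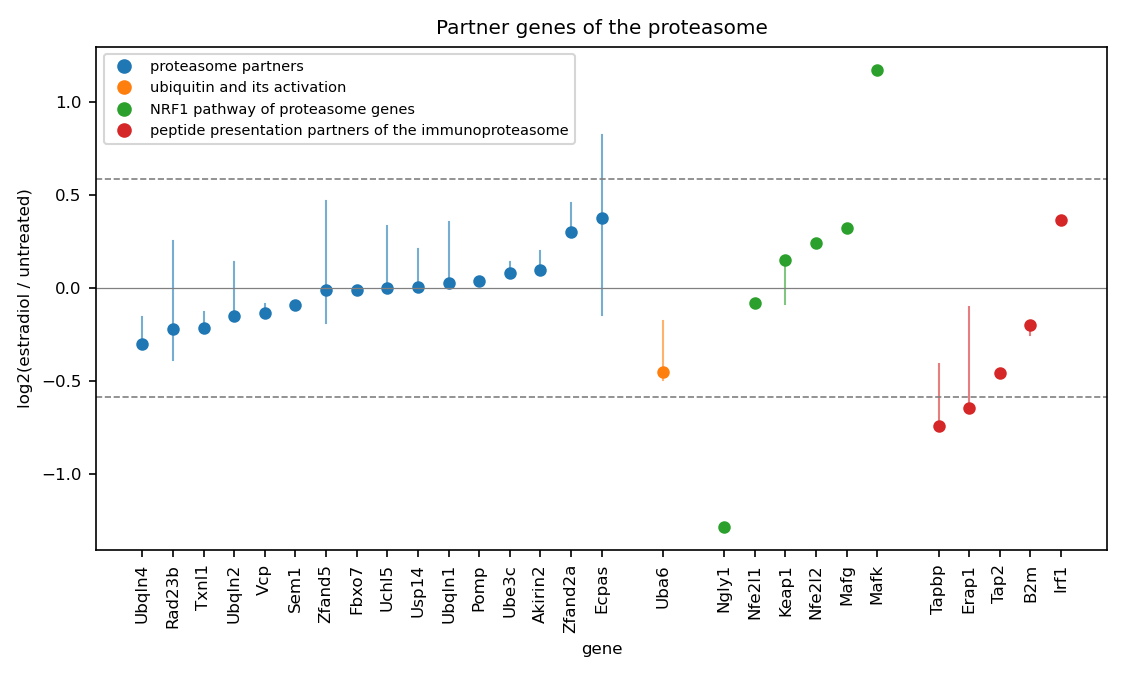
Log2 ratio of the measured partner genes in the 4 lists, with the brightest probe set as a point, the range over measured probe sets as a line and 1.5-fold as dashed lines. Ngly1 (-1.29) and Mafk (1.17) lie farthest from 0, and Tapbp and Erap1 are past 1.5-fold lower.

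All 10 erythroid markers were measured, and Alas2, the erythroid heme synthesis gene, read 283 and 3430 (12.1-fold higher). The list had no common direction: 5 of 10 lay above 0, with a median log2 ratio of 0.00. At 1.5-fold 4 of 10 were higher, against 7.11% of all measured genes, and 0 were lower, against 4.85%. Tal1 (-0.56), Gata2 (-0.45) and Nfe2 (-0.37) were lowest. The Gata1 probe set read 1264 and 1191, and it checks no label because it may read the fusion. Of the lymphoid markers 2 of 6 reached the floor on both arrays, of the megakaryocyte markers 2 of 5 and of the neutrophil and monocyte markers 1 of 7. Elane, S100a8, S100a9, Cd3e and Gp9 were below it on both. Mpo (85.0 and 137) and Ltf (60.0 and 114) reached it with estradiol only. Among the dendritic cell and macrophage markers 4 of 6 were measured, and the list had a summed signal of 898 and 816. Of those 4 measured, 2 lay above 0 and 1 was 1.5-fold lower, against 4.85% of all measured genes. That gene was Flt3, at 266 and 134 (-0.99). Itgax (78.9 and 126) reached the floor with estradiol only. Mast cell markers, 5 of 7 at or above the floor on each array, summed to 9189 untreated and 5773 with estradiol, but the genes went both ways. Cpa3 (6616 and 1146) and Ms4a2 (2093 and 791) were lower, while Tpsab1 (140 and 3418) was higher and Hdc went from 3.80, below the floor, to 152. The part of these markers in the ratios above was not tested.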

How the data were processed

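RNA of 2 samples, 1 array each, was measured on a short-oligonucleotide platform. The authors deposited linear signal intensities per probe set, made with GCOS per the submitters' processing notes, and the sources used here give no version of it. The 2% trimmed mean was 500.0 on both arrays as deposited, so the deposited signals already shared 1 overall level. A difference in total signal between the groups cannot be read from them. Detection calls were not used here. Signals were rescaled to 1 trimmed mean over 45037 non-control probe sets (factors 0.999941 and 1.00006). Log2 ratios, the floor and the SD between probe sets are as described above. A gene below the floor on 1 array would take a bound, and one below it on both has no ratio. The platform annotation gave 34945 probe sets 1 gene symbol, 932 several and 9160 none, and all 49 symbols matched RefSeq (GRCm38.p6) by Entrez identifier. No test was possible with 1 array a group. The members, lists, roles and thresholds were chosen with earlier results of these data known. Every matching gene is accounted for, with values for catalytic genes, extremes of each role and genes past 1.5-fold. Scaling and ratios were tested on simulated data first. Alternatives covered scaling, floor, probe set and fold. Calculations ran in Python 3.11.15 with pandas 2.3.3, numpy 2.4.6 and statsmodels 0.14.6, and plots in matplotlib 3.10.9.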

Additional observations from a re-analysis of the deposited data

How the results depend on the processing

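Scaling decided the sign of values this close to 0. With a common median, 7 proteasome genes lay above 0 and 39 below, with a median of -0.13. The median of all measured genes also shifted, to -0.11. The split of all genes past 1.5-fold turned from 7.11% higher and 4.85% lower to 5.08% and 7.54%. Under that setting 0 proteasome genes were 1.5-fold higher, since Psmg3 had 0.52. With loess, 0 were 1.5-fold lower, since Psmd5 had -0.58. Without a floor and with 16 added to each signal, 2 were lower, Psmd5 and the dim Psmb11. A fold threshold of 2 left 0 higher and 0 lower, and 1.2 gave 3 and 5. The median over the proteasome genes ran from -0.13 (common median) to 0.03 (loess). Of 459 gene values under the alternatives, 451 moved by less than the SD of 0.25. The 8 that moved more were in 5 genes, Psma3, Psmb1, Psmc6, Psmd11 and Psmf1, each under another choice of probe set. Many of the 459 could hardly move: the main scaling factors were 0.999941 and 1.00006, and a change of floor leaves a measured ratio unchanged. A change of probe set can move only the 23 genes with more than 1 measured, so the total is no measure of stability. No constitutive subunit passed 1.5-fold under the 10 alternatives of scaling, floor and probe set. Those choices of probe set never took the dimmest measured ones of Psmc6 (0.74) and Psmd4 (0.88), which were past 1.5-fold. A floor at the 70th percentile left Psmb9 without a ratio. Signal over background limits Psma8, Psmb8 and Psmb11, for which no ratio can be read. No paired analysis was possible because each group holds 1 array.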
